A study of Homo sapiens with 6 samples.

Results

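Mucin-type O-glycans are built on serine and threonine by enzymes that act in turn. Here 43 genes listed for starting, branching, lengthening and capping such chains were described in A549 cells. The 43 genes were taken by name from the 24846 genes of the deposited table, where each has 1 row: 13 initiating GalNAc-transferases, 2 genes of core 1 synthesis, 4 branching enzymes, 9 elongating enzymes, 8 sialyltransferases and 7 fucosyltransferases. A549 is a human lung adenocarcinoma line of epithelial origin. Cells were grown for 8 passages in calcium-depleted DMEM/F12 that received amorphous calcium carbonate (ACC) to give 2 mM elemental calcium (3 cultures, ACC), or in complete DMEM/F12, whose calcium is calcium chloride (3 cultures, control). Both media held serum and antibiotics, and all cells were labelled WT. Calcium source and calcium amount thus changed in 1 step. Per the paper, the ACC suspension also brings carbonate and a tripolyphosphate stabilizer, and it raised the pH of acidified medium. The pH of these cultures is not given. The effects of all these differences cannot be told apart. No source used here says if replicate cultures were passaged separately, so p-values measure the spread among these 6 samples, which may be partly technical. In such bulk samples, fewer cells of a kind and less RNA per cell cannot be told apart.

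The first sugar, N-acetylgalactosamine (GalNAc), is placed on the protein by the GALNT family and gives the Tn antigen. Some family members work on bare peptide, while others prefer peptide that already carries a GalNAc. Galactose is then added by the core 1 synthase C1GALT1 to give the T antigen, a GlcNAc branch makes core 2, and galactose and GlcNAc are added in turn to lengthen the chain. Sialic acid or fucose caps the ends, and an early sialic acid stops the chain at a short form such as sialyl-Tn. In airway epithelium these chains make up much of the mass of mucins. Several enzymes of the list also work on N-glycans or glycolipids, and some work mainly there, such as FUT8, B3GALT4, A4GALT and B3GNT5. All are counted in the step they are listed under, and known roles are given below for most.

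The values are the authors' normalized counts, which are reads per gene divided by a size factor of each library. The 6 libraries held from 21771645 to 24805486 reads in genes. Mitochondrial genes took 4.39% to 5.70% of reads with ACC and 4.04% to 4.29% in control. The summed level of 5 epithelial markers ran from 102820 to 107630 normalized counts with ACC and from 128960 to 130350 in control, and each of the 5 had at least 30 reads. This sum follows KRT8 and KRT18, with log2 fold changes of -0.31 and -0.42, while EPCAM (0.62), KRT19 (0.64) and CDH1 (1.10, called) were higher with ACC, all 5 passing by limma. None of 4 leukocyte markers in the table (summing to 6.53 to 10.2 with ACC and 1.78 to 4.81 in control) and of 4 endothelial markers (8.66 to 14.3 with ACC and 1.92 to 4.45 in control) reached 30 reads, and PTPRC, CD3E, CDH5, VWF and KDR stayed at 3 reads or fewer in every library. Of 5 fibroblast markers, which summed to 130 to 178 normalized counts with ACC and 309 to 326 in control, DCN stayed at 3 reads or fewer and 2 reached 30 reads. The 4 others passed as lower with ACC by limma. Their log2 fold changes were -1.38 for LUM, -1.57 for PDGFRA (called), -1.83 for PDGFRB and -0.95 for THY1. Most of the fibroblast sum was THY1, with means of 143 with ACC and 274 in control. The part of these differences in the results below was not tested.

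At every step of the pathway at least 1 gene differed with ACC by limma. Members went in both directions, but no core 1 gene and no sialyltransferase passed as lower. With limma, 20 members passed an adjusted p of 0.05 as higher with ACC and 13 as lower, 8 did not pass, and GALNT3 and FUT6 had too few reads to be tested. Among all 19318 genes tested 43.3% passed, 21.3% higher and 21.9% lower. Of the 37 members with at least 30 reads in 1 library 31 passed, 19 higher and 12 lower, while 55.5% of all genes with that many reads did, 27.2% higher and 28.3% lower. The 3 ACC and 3 control libraries did not overlap for 36 of the 41 members tested and 33 of the 37, against 51.4% of all genes tested and 63.0% of those with 30 reads. A change was called when it also reached 2-fold and 30 reads in 1 library. Such calls numbered 7 higher and 2 lower members out of 41 tested, where the background of called genes was 5.01% (2.77% higher and 2.24% lower) of all genes tested and 6.98% (3.87% higher and 3.12% lower) of those with 30 reads. The members were listed with earlier results of these data known, so these shares describe the list. The higher genes were ST6GALNAC1, B3GNT3, GALNT5, GALNT4, B3GALT4, ST6GALNAC2 and ST6GALNAC4, and the lower genes were GALNT16 and GALNT18. Another 23 members passed the adjusted p with a change under 2-fold, and FUT1 changed more but had at most 29 reads. The median log2 fold change was 0.18 over the 41 members and 0.00 over all genes tested. Fold changes are on the log2(normalized count + 1) scale, where the added 1 shrinks the change of genes with low counts. Values after ± are SDs of n = 3 libraries per group.

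**Figure D1:**
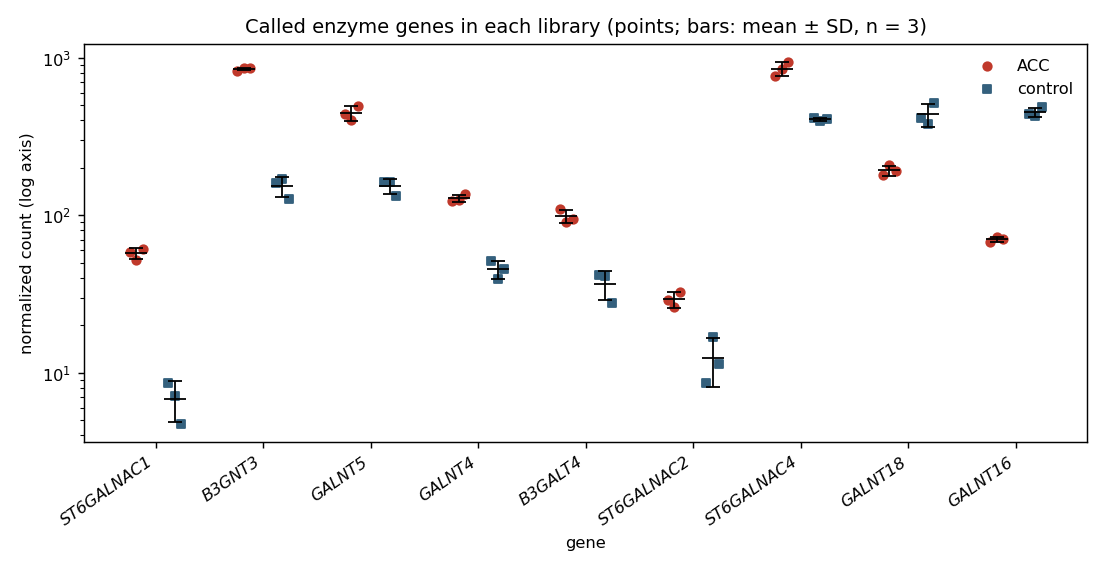
Normalized counts (log axis) of the 9 called genes in each library, ACC circles left of control squares, with the mean and SD of 3 libraries as bars. The groups do not overlap for any of the 9 genes: 7 lie higher with ACC, while GALNT18 and GALNT16 lie lower.

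The sequences just upstream of the RefSeq starts of ST6GALNAC4 and B3GNT3, a sialyltransferase and an elongating enzyme that were both higher with ACC, are shown as those of called genes from 2 different steps. Both come from RefSeq (GRCh38.p14), are written on the strand of the gene and hold no exon base of GENCODE 44. The B3GNT3 window lies inside the span that GENCODE gives for the gene, between its exons. Capitals mark the GC box GGGCGG on either strand. The start site used in A549 cells was not measured.
ST6GALNAC4, chr9:127917042-127917291, minus strand: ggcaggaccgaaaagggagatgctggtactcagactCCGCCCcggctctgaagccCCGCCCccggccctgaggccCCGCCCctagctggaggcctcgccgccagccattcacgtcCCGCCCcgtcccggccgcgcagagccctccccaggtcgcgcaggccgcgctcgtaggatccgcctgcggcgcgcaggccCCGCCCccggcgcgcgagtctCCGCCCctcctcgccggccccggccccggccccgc
B3GNT3, chr19:17794888-17795135, plus strand: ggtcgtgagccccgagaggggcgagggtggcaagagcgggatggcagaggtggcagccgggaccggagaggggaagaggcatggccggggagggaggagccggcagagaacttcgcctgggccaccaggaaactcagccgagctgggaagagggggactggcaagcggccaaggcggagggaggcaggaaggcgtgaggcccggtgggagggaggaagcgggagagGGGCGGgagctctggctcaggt
The ST6GALNAC4 window held 6 GC boxes in 250 bases and the B3GNT3 window held 1 in 248 bases, so that these 2 called genes differ in this feature. Of the 43 members, 33 matched a promoter of 250 upstream bases, and 23 of these held a GC box on either strand, against 42.3% of all 27305 promoters in the table. The TATA box TATAAA was found in 0 of the 33, against 11.1% of all promoters, and the CCAAT box CCAAT in 7, against 33.0%. The AP-1 site TGANTCA was found in FUT8 alone (6.60% of all promoters), the E-box CACGTG in ST3GAL4 alone (6.49%) and the FOXA site TGTTTAC in none (2.98%). Both strands were searched for each motif, and a match is a match of letters only. The median GC content of the upstream bases was 68.4% in the members and 58.0% in all promoters. These promoters were not limited to genes with reads in A549 cells. Whether the members differ from other expressed genes in these features was not tested.

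The initiating GalNAc-transferases moved apart. Of the 13 genes, 4 were higher and 7 lower with ACC by limma, GALNT11 did not pass, and GALNT3 had 7 reads in ACC replicate 3, none in the other ACC libraries and at most 1 in each control library. Their median log2 fold change was -0.31. GALNT16, a member of the GALNT2 subfamily, had the largest fall of the 41 tested members. It had 68.0, 73.2 and 70.6 normalized counts with ACC, against 441, 424 and 484 in control, where it was 6.37-fold higher. The ACC values were close together and far under all control values (log2 fold change -2.65, standard error, SE, 0.0917, limma adjusted p = 9.13e-14). GALNT18 fell as well, to 179.8, 207 and 190.3 normalized counts with ACC, against 412, 381 and 516 in control (log2 fold change -1.17, SE 0.0982, limma adjusted p = 1.86e-08). Here the control libraries were the more spread, and the lowest of them was still above the highest ACC library.

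GALNT5 had 438, 403 and 494 normalized counts with ACC, against 162, 164 and 133 in control. All ACC libraries were more than 2-fold above all control libraries, and the log2 fold change was 1.54 (SE 0.0959, limma adjusted p = 3.13e-10). GALNT4, which acts on peptides that already carry GalNAc, had 123.9, 124 and 136 normalized counts with ACC, against 51.1, 39.1 and 45.6 in control (log2 fold change 1.49, SE 0.141, limma adjusted p = 8.65e-08). On GRCh38 the gene spans chr12:89519412-89524796, and 93.4% of its exon bases also belong to the readthrough gene POC1B-GALNT4. That gene was at 12.5 ± 4.30 with ACC and 9.96 ± 0.433 in control (normalized counts). Reads in shared exons can be lost or split in counting, so the level of GALNT4 is uncertain.

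Levels can be set side by side per kb of exon, and on this scale GALNT10, GALNT2 and GALNT1 led the initiating enzymes in both groups. GALNT10, which prefers peptide that already carries GalNAc, was at 607 ± 8.61 with ACC and 870.0 ± 21.9 in control. In normalized counts it had 6268, 6430.0 and 6419 with ACC, against 9352, 8894 and 9147 in control (log2 fold change -0.52, limma adjusted p = 5.39e-10). GALNT2, a broadly expressed enzyme that starts on bare peptide, had 3647, 3488 and 3586 normalized counts with ACC, against 6029, 6005 and 6177 in control. Its 3 ACC values lay close together and far under its control values, with a log2 fold change of -0.76 (SE 0.0349, limma adjusted p = 3.78e-12). GALNT1, also broadly expressed and active on bare peptide, had a log2 fold change of -0.68 (limma adjusted p = 1.58e-10) and a level per kb of 468 ± 8.86 with ACC and 748 ± 32.7 in control. GALNT2 was at 463 ± 10.5 per kb with ACC. The order of GALNT1 and GALNT2 with ACC depends on the length used, since by the longest transcript GALNT2 held 18.95% and GALNT1 14.2% of the summed level of the step.
GALNT7, another enzyme that needs peptide already carrying GalNAc, went the other way. It had 2404, 2441 and 2446 normalized counts with ACC, against 1659, 1743 and 1611 in control (log2 fold change 0.54, SE 0.0413, limma adjusted p = 4.92e-09). Its share of the summed level per kb of the 13 genes was 13.6% ± 0.0937 with ACC and 7.04% ± 0.350 in control. The share of GALNT2 was 17.6% ± 0.414 with ACC and 22.6% ± 0.152 in control, and that of GALNT1 was 17.8% ± 0.388 with ACC and 21.4% ± 0.826 in control. The enzymes known to prefer GalNAc-bearing peptide were therefore not of 1 direction, since GALNT7, GALNT4 and GALNT12 were higher and GALNT10 was lower. GALNT12 had a log2 fold change of 0.23 (limma adjusted p = 0.0311, DESeq2 adjusted p = 0.0902). GALNT6 had -0.46 and GALNT14, which modifies death receptors, had -0.17, both passing. GALNT11 had -0.08 (95% interval -0.17 to 0.01, limma adjusted p = 0.173). The summed level per kb of the 13 genes was 2629 ± 9.48 with ACC and 3490 ± 54.0 in control.

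**Figure D2:**
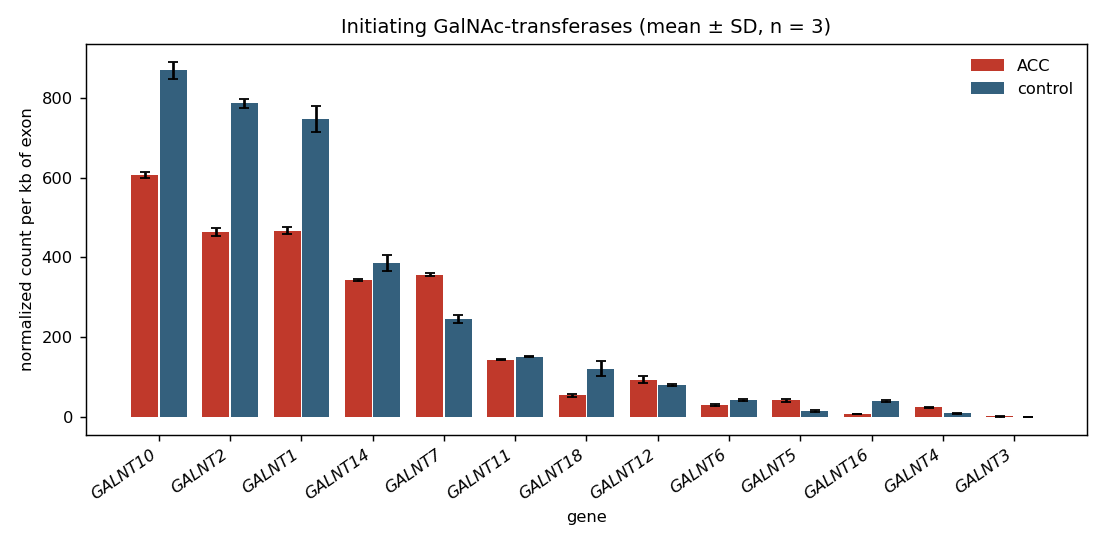
Mean normalized count per kb of exon of the 13 initiating GalNAc-transferases, ACC bars left of control bars, with SD over 3 libraries as error bars. GALNT10, GALNT2 and GALNT1 stand lower with ACC, and GALNT7 stands higher at 357 per kb against 245 in control.

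The core 1 genes changed little. C1GALT1, the core 1 synthase, had 1023, 929 and 1017 normalized counts with ACC, against 866, 889.95 and 868 in control. The groups did not overlap, but the log2 fold change was only 0.18 (SE 0.0509, limma adjusted p = 0.00872), and without ACC replicate 3 the adjusted p was 0.0512. C1GALT1C1 encodes the chaperone without which C1GALT1 does not fold. It had 897, 803 and 867 normalized counts with ACC, against 806, 803 and 813 in control, where ACC replicate 2 lay among the control values (log2 fold change 0.08, 95% interval -0.03 to 0.19, limma adjusted p = 0.225). Per kb of exon C1GALT1C1 was the higher of both, at 473 ± 26.6 with ACC and 446 ± 2.87 in control, and C1GALT1 was at 127 ± 6.73 with ACC and 113 ± 1.69 in control.

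Of the 4 branching enzymes 2 were higher and 1 lower with ACC by limma. The one with by far the highest level per kb was GCNT3, the mucin-type core 2 enzyme, which can also make core 4 and I branches. It had 4081, 3866 and 4052 normalized counts with ACC, against 2767, 2668 and 2678 in control. Every ACC value was far above every control value, with a log2 fold change of 0.56 (SE 0.0376, limma adjusted p = 7.65e-10). Per kb of exon GCNT3 was at 618 ± 17.99 with ACC and 418 ± 8.40 in control, which made up 88.7% ± 0.331 of the summed level of the 4 branching genes with ACC and 86.2% ± 0.594 in control. GCNT2, the I-branching enzyme, had 612, 605 and 656 normalized counts with ACC, against 542, 511 and 475 in control (log2 fold change 0.29, SE 0.0624, limma adjusted p = 0.000809). GCNT1, the core 2 enzyme best known from leukocytes, had 85.7, 89.6 and 79.8 normalized counts with ACC, against 88.7, 69.4 and 69.3 in control. In control, replicate 1 lay among the ACC libraries (log2 fold change 0.17, 95% interval -0.12 to 0.47, limma adjusted p = 0.354). GCNT4, a further core 2 enzyme, was the only branching gene that was lower, with 10.3, 7.71 and 13.3 normalized counts with ACC, against 20.2, 19.6 and 22.8 in control (log2 fold change -0.96, limma adjusted p = 0.0110, DESeq2 adjusted p = 0.0654). It had at most 24 reads in a library.

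Of the 9 elongating enzymes 5 were higher and 3 lower with ACC by limma, with a median log2 fold change of 0.45, and B3GNT3 rose most. This enzyme adds GlcNAc to core 1 and so lengthens the chain. On GRCh38 it spans chr19:17794828-17813576. It had 828, 858 and 858 normalized counts with ACC, against 159.98, 170.7 and 127 in control, a 5.56-fold difference of the means. The 3 ACC values lay close together, and the log2 fold change was 2.48 (SE 0.0889, limma adjusted p = 1.49e-13). Its single GC box stands near the end of the window printed above. B3GNT7, a related enzyme that acts on sulfated chains, had 252, 243 and 270.1 normalized counts with ACC, against 158, 172 and 123 in control (log2 fold change 0.76, SE 0.110, limma adjusted p = 1.59e-05). B3GNT2, the main enzyme of long lactosamine chains, was slightly lower, with a log2 fold change of -0.14 (limma adjusted p = 0.0308, DESeq2 adjusted p = 0.112). B3GNT5, which starts the lacto-series glycolipids, was lower with a log2 fold change of -0.39 (limma adjusted p = 0.00102). With ACC, B3GNT3 at 306 ± 6.24 per kb of exon stood above B3GNT2 at 265 ± 4.59, whereas in control B3GNT3 was at 55.1 ± 8.17 and B3GNT2 at 291 ± 6.80.

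The galactosyltransferase B4GALT1, which acts on many N- and O-glycans, had the highest level per kb of all 43 members, at 2378 ± 20.3 with ACC and 2736 ± 186 in control. It had 11550, 11748 and 11631 normalized counts with ACC, against 14075, 13755 and 12362 in control. Control replicate 3 was nearest to the ACC values, and the log2 fold change was -0.20 (SE 0.0415, limma adjusted p = 0.000664). B4GALT4, which prefers sulfated chains, had 4842, 4413 and 4678 normalized counts with ACC, against 3470.4, 3326 and 3431 in control (log2 fold change 0.45, SE 0.0397, limma adjusted p = 3.98e-08). B4GALT5, a lactosylceramide synthase, had a log2 fold change of -0.07 (95% interval -0.14 to 0.01, limma adjusted p = 0.157). The share of B4GALT1 in the summed level per kb of the 9 elongating genes was 50.3% ± 0.789 with ACC and 59.4% ± 1.51 in control. The sum itself was 4731 ± 36.8 with ACC and 4600 ± 199 in control, with overlapping libraries.
Of the enzymes that work mainly on glycolipids, B3GALT4 and A4GALT were higher, while B3GNT5 was lower. B3GALT4, which makes the galactose end of gangliosides of the GM1 type, had 109, 90.5 and 95.1 normalized counts with ACC, against 41.4, 40.9 and 27.5 in control (log2 fold change 1.42, SE 0.175, limma adjusted p = 2.47e-06). A4GALT, which makes the globoside Gb3, had 849.7, 824 and 838 normalized counts with ACC, against 599, 578 and 582 in control (log2 fold change 0.51, SE 0.0509, limma adjusted p = 1.62e-07). Neither gene's ACC values came near its control values.

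Within the sialyltransferases, 7 of 8 genes were higher with ACC and none was lower, with a median log2 fold change of 0.67. ST3GAL2 alone among them did not pass, and it alone had a fold change below 0, with an interval that includes 0. By edgeR's quasi-likelihood test and by DESeq2, 0 were lower as well. ST6GALNAC1, which makes sialyl-Tn by adding sialic acid to the first GalNAc, had 58.7, 52.0 and 61.4 normalized counts in the ACC cultures, against 8.67, 7.11 and 4.75 in the control cultures. Every ACC library was thus well above every control library, although the gene stayed at a low level. The means differed 8.38-fold, with a log2 fold change of 2.92 (SE 0.260, limma adjusted p = 3.92e-08). ST6GALNAC2, on the same chromosome, adds sialic acid to the GalNAc of core structures. Its counts were 28.9, 26.0 and 32.7 with ACC, against 8.67, 16.9 and 11.4 in control, with a log2 fold change of 1.22 (SE 0.276, limma adjusted p = 0.00142). This gene shares 39.8% of its exon bases with AC015802.6, annotated on the same strand, at 3.24 ± 0.545 with ACC and 5.81 ± 3.56 in control (normalized counts).

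ST6GALNAC4, which adds the second sialic acid to the sialylated T antigen, had the highest level per kb of exon among the 8 sialyltransferases. It had 770.5, 848 and 938 normalized counts with ACC, against 413, 398 and 407 in control. The 3 ACC libraries were spread more widely than the 3 control libraries, and the groups were far apart. Its log2 fold change was 1.06 (SE 0.0665, limma adjusted p = 3.28e-10), just inside the 2-fold threshold, and 0.99 without ACC replicate 3, which ends the call. Per kb of exon its level was 324 ± 31.9 with ACC and 154 ± 2.89 in control, and its share of the summed level of the step was 45.2% ± 1.52 with ACC and 33.5% ± 1.12 in control.

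The ST3GAL enzymes place sialic acid on galactose. ST3GAL1, which caps the T antigen and competes there with core 2 branching, had 667, 707 and 744 normalized counts with ACC, against 436, 432 and 375 in control (log2 fold change 0.77, SE 0.0677, limma adjusted p = 3.36e-08). No control library reached an ACC library, and the change stayed under 2-fold. ST3GAL2, which sialylates the same core and gangliosides, had 1362, 1357 and 1365 normalized counts with ACC, against 1401, 1470 and 1347 in control. The groups overlapped, with a log2 fold change of -0.05 (95% interval -0.14 to 0.05, limma adjusted p = 0.453). ST3GAL4 and ST3GAL6, which cap lactosamine chains, had log2 fold changes of 0.41 and 0.57, and ST6GAL1, which mainly caps N-glycans, had 0.38. ST3GAL6 was the least certain of the 7 that passed: at 47.97 ± 7.48 with ACC and 31.8 ± 3.39 in control (normalized counts), its adjusted p was 0.0210 by limma and 0.0810 by DESeq2. It also shares 3.70% of its exon bases with DCBLD2 on the opposite strand, which was lower with ACC. Per kb of exon, the summed level of the 8 genes was 714.5 ± 47.7 with ACC and 460.3 ± 8.49 in control.

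Among the fucosyltransferases 1 gene was higher and 2 lower, out of 6 tested. FUT1, which makes the H antigen, had 27.0, 21.2 and 26.6 normalized counts with ACC, against 7.71, 1.78 and 1.90 in control. In reads this was 77 over the 3 ACC libraries and 12 over the 3 control libraries (log2 fold change 2.64, SE 0.416, limma adjusted p = 4.13e-05). FUT2, the other H enzyme and the one of secretory epithelium, lies next to FUT1 on chromosome 19 and had 15.8, 15.4 and 17.4 normalized counts with ACC, against 20.2, 16.9 and 18.04 in control. These overlapped (log2 fold change -0.17, 95% interval -0.71 to 0.37, limma adjusted p = 0.638). FUT8, which adds the core fucose of N-glycans, had 557, 490.2 and 525 normalized counts with ACC, against 699, 664 and 646 in control (log2 fold change -0.35, SE 0.0609, limma adjusted p = 0.000109). FUT11 had 374, 399 and 372 normalized counts with ACC, against 450.1, 403 and 448 in control. Its log2 fold change of -0.18 passed by limma (adjusted p = 0.0359) but not by DESeq2 (adjusted p = 0.122).
The enzymes of Lewis structures were near the limit of detection or did not pass. FUT4, which makes Lewis x, had 137, 162 and 155 normalized counts with ACC, against 146, 139 and 138 in control (log2 fold change 0.10, 95% interval -0.11 to 0.31, limma adjusted p = 0.471). FUT3, the Lewis blood group enzyme, had 9 reads over the ACC libraries and 2 over the control libraries, and FUT6, which makes sialyl Lewis x, had 4 with ACC and 3 in control. FUT3 and FUT6 are close paralogs, so their few reads may be shared between them. FUT3 had a log2 fold change of 1.31 (95% interval 0.04 to 2.58, limma adjusted p = 0.0918, and 0.0407 with no filter on low counts), and its groups did not overlap at 9 reads against 2. Per kb of exon, FUT8 was at 75.1 ± 4.80 with ACC and 96.0 ± 3.85 in control and FUT11 at 77.5 ± 3.02 with ACC and 88.1 ± 5.44 in control, but their order depends on the length used. By the longest transcript FUT11 held 52.9% and FUT8 33.9% of the summed level with ACC, and in control FUT11 held 52.8% and FUT8 38.05%.

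**Figure D3:**
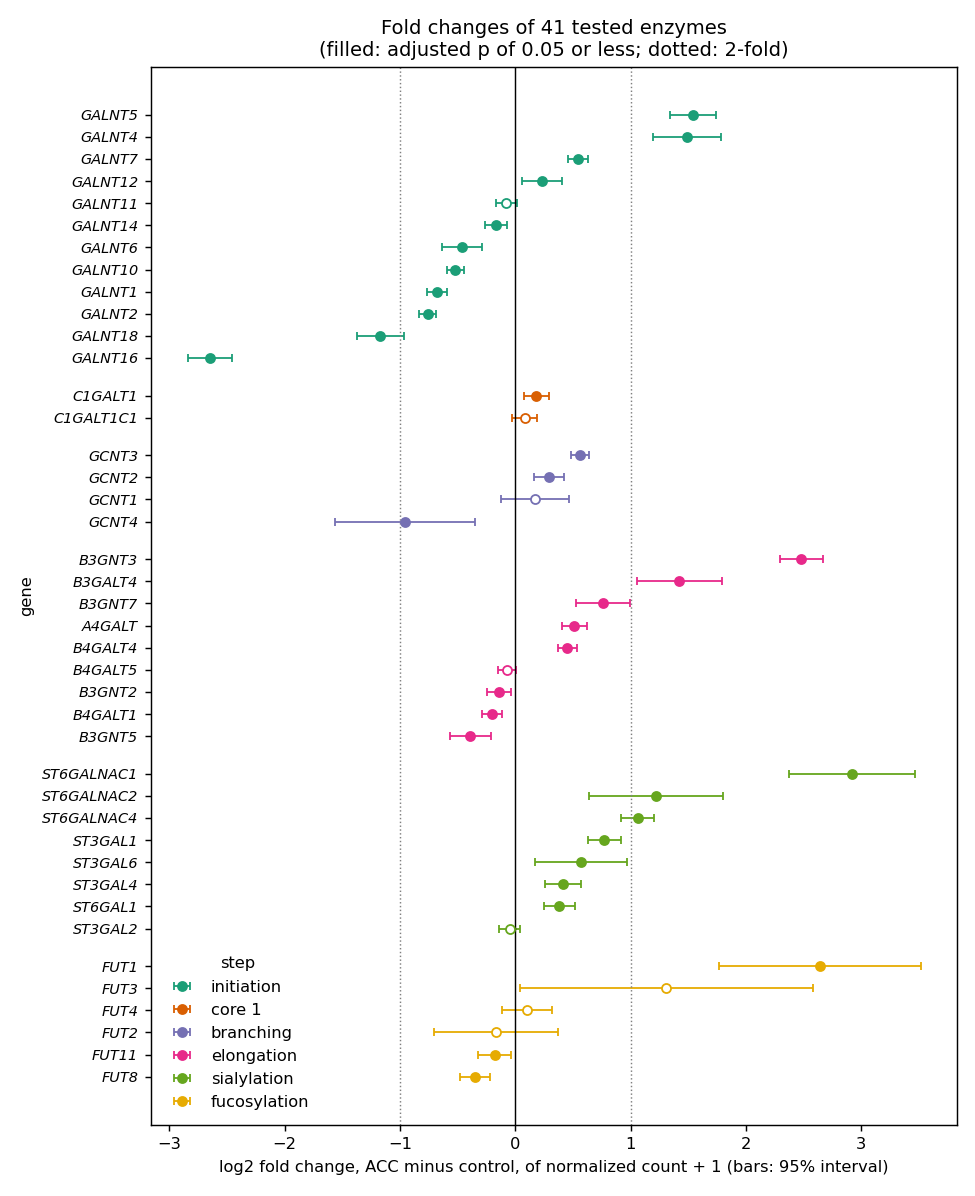
Log2 fold changes (ACC minus control, of normalized count + 1) of the 41 tested genes by step, with 95% intervals from limma. Filled points passed an adjusted p of 0.05 and dotted lines mark 2-fold. Sialyltransferases lie at or above 0 except ST3GAL2 at -0.05, and initiating enzymes lie on both sides.

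Per kb of exon, the steps shifted against each other as a description of these libraries. The summed levels of sialylation and branching were higher with ACC in every library, at 714.5 ± 47.7 with ACC against 460.3 ± 8.49 in control for sialylation and 696 ± 19.6 with ACC against 485 ± 12.6 in control for branching. The summed levels of initiation and fucosylation were lower in every ACC library, at 189.7 ± 0.764 with ACC against 214 ± 9.197 in control for fucosylation. Most of the fucosylation sum came from FUT8, an N-glycan enzyme (39.6% with ACC, 44.8% in control), and FUT11 (40.8% with ACC, 41.1% in control). This sum therefore says little about the capping of mucin chains. Core 1 was also higher in every ACC library, at 601 ± 33.1 with ACC and 559 ± 2.13 in control. Its margin was narrow, at 564 in ACC replicate 2 against 561 in control replicate 3. Each sum follows its most abundant members, and the exon lengths are those of GENCODE 44, not of the transcripts used in these cells.

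**Figure D4:**
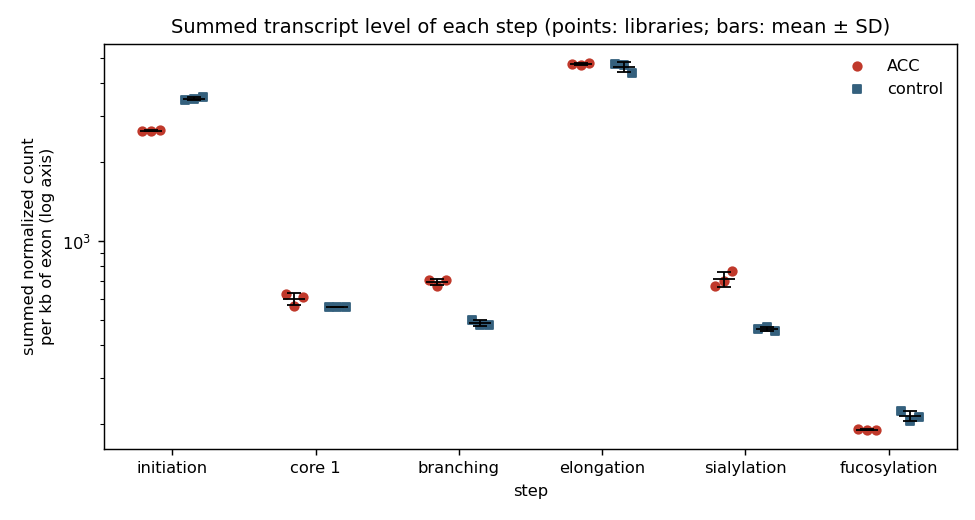
Summed normalized count per kb of exon (log axis) of the genes of each step in each library, ACC circles left of control squares, with mean and SD of 3 libraries. Initiation and fucosylation lie lower with ACC, branching and sialylation lie higher, and elongation overlaps between the groups.

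Enzymes of the same families that were not among the 43 moved in both directions too. Of 37 such genes, 33 were in the table and 26 were tested, of which 7 were higher and 9 lower with ACC by limma. Among all genes tested, 21.3% passed as higher and 21.9% as lower. ST8SIA4, a polysialyltransferase, had 1030, 957 and 1038 normalized counts with ACC, against 281, 314 and 287 in control (log2 fold change 1.78, limma adjusted p = 1.02e-13). ST6GALNAC3, a relative of ST6GALNAC4, was lower, with 36.3, 23.1 and 31.7 normalized counts with ACC, against 73.2, 91.6 and 74.1 in control (log2 fold change -1.38, limma adjusted p = 9.02e-06). Not every sialyltransferase outside the 43 was thus higher. ST6GAL2, which caps lactosamine with sialic acid as ST6GAL1 does, had a log2 fold change of 0.41, and ST3GAL5, which makes the ganglioside GM3, had -0.19, both passing. B4GALNT2, the enzyme of the Sda antigen, was called lower (log2 fold change -2.34, limma adjusted p = 0.000595), although ACC replicate 1 had 16.8 normalized counts and the other ACC libraries 1.93 and 3.07, against 30.8, 28.5 and 28.5 in control. GALNT13, the closest relative of GALNT1, had a log2 fold change of -0.70 (limma adjusted p = 9.72e-09).

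The genes listed for donor sugar supply were mostly higher by small amounts. For scale, 27.2% of all genes with at least 30 reads in 1 library passed as higher and 28.3% as lower. Of 10 genes listed as Golgi nucleotide sugar transporters, 9 were higher and 0 lower by limma. Their median log2 fold change was 0.25 with none past 2-fold, and by edgeR and DESeq2 0 were lower as well. The 9 include SLC35B2 (log2 fold change 0.11) and SLC35B3 (0.24), which carry the sulfate donor PAPS and not a sugar. SLC35A1, the CMP-sialic acid transporter, had 184, 208 and 209.7 normalized counts with ACC, against 138, 139.6 and 150.04 in control (log2 fold change 0.49, limma adjusted p = 0.000348). SLC35C1, the GDP-fucose transporter, had a log2 fold change of 0.30, SLC35A2, for UDP-galactose, 0.29, and SLC35C2 had 0.26. SLC35D2 did not pass (log2 fold change 0.17, limma adjusted p = 0.0597). Of 19 genes listed for nucleotide sugar synthesis, 10 were higher and 1 lower. The 10 include GNPDA1 (log2 fold change 0.18), a deaminase of glucosamine phosphate that works against hexosamine synthesis. The highest change in the list was that of GMDS, the first enzyme of GDP-fucose synthesis from GDP-mannose. GMDS had 694, 720.4 and 704 normalized counts with ACC, against 360.4, 375 and 358 in control (log2 fold change 0.95, limma adjusted p = 1.87e-10). NANS and GNE, which make sialic acid, had log2 fold changes of 0.44 and 0.41, both passing. The paralogs of the entry to the hexosamine pathway went apart, with GFPT1 higher (log2 fold change 0.43, limma adjusted p = 9.08e-08) and GFPT2 called lower (log2 fold change -1.03, limma adjusted p = 5.94e-11).

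Hydrolases that take glycans apart were also mostly higher, with 8 of 12 higher and 1 lower by limma and a median log2 fold change of 0.39. Among all genes with at least 30 reads in 1 library, 27.2% passed as higher and 28.3% as lower. NEU1, the lysosomal sialidase, had 972, 1003 and 1005 normalized counts with ACC, against 522, 543 and 479.6 in control (log2 fold change 0.95, limma adjusted p = 1.59e-10). HEXA, a hexosaminidase subunit, had 0.52, AGA, which cuts the link between glycan and asparagine, had 0.61 and GLB1, a galactosidase, had 0.40, all passing. GLA, a galactosidase of globosides, was lower, with a log2 fold change of -0.29. Of 8 glycan sulfotransferases in the table, 6 were tested and 1 was lower. This was CHST1, which sulfates galactose and was called with 5.59, 4.82 and 5.11 normalized counts with ACC, against 14.5, 14.2 and 30.4 in control (log2 fold change -1.66, limma adjusted p = 0.000866). Its call rests on control replicate 3, the library in which it reached 30 reads.

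**Figure D5:**
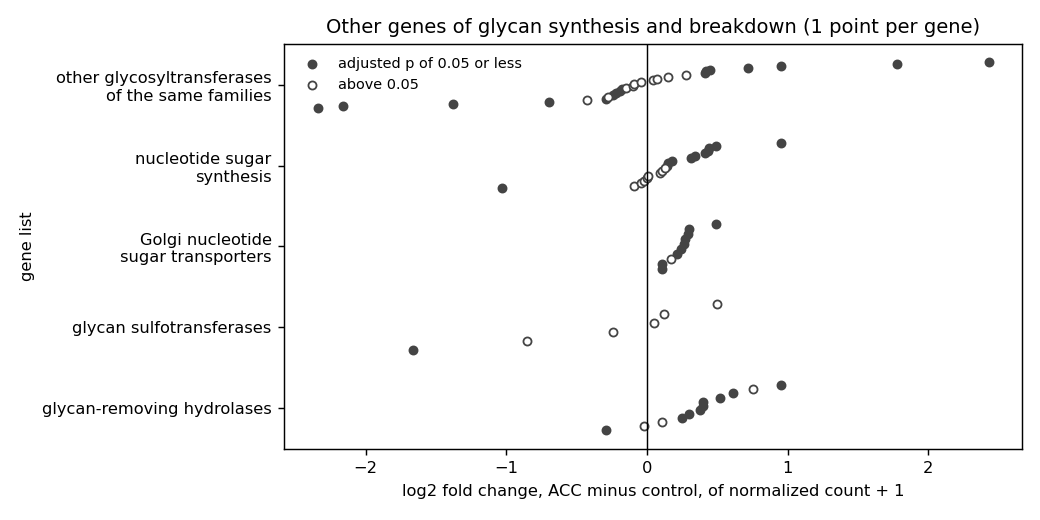
Log2 fold changes (ACC minus control, of normalized count + 1) of tested genes in 5 further lists, 1 point per gene, filled where the limma adjusted p was 0.05 or less. All 10 genes listed as nucleotide sugar transporters lie above 0, from 0.11 to 0.49, while the other glycosyltransferases spread from -2.34 to 2.43.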

How the data were processed

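Poly(A) RNA of 6 samples was sequenced. Per the study's methods and the submitters' processing notes, Cutadapt was used for trimming, STAR 2.4.2a for mapping to GRCh38, htseq-count for counting and DESeq2 for size factors. The deposited signal values are these normalized counts, rounded to 2 decimals. No source used here states whether strand was used, so antisense reads may be included. The authors' own fold changes and p-values were not used, and 0 columns of values were left unmapped.

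Groups followed the submitters' titles. The values came out as whole multiples of 1 read (100% of positive values within 0.1 read), which gave back the reads. The main test was limma 3.58.1 with its trend option on log2(normalized count + 1) in R 4.3.3, for the 19318 genes whose normalized counts summed to 10 or more, with Benjamini-Hochberg adjustment. A call needed an adjusted p of 0.05, a fold of 2 and 30 reads in 1 library. The script was tested on simulated data. Alternatives were edgeR 4.0.16 and DESeq2 1.42.0 on the recovered reads, voom, other scalings, pseudocounts and filters, a replicate block, another transcript length and leaving out each library. Exon lengths and coordinates are from GENCODE 44 on GRCh38. All 43 members are named. Called members, the highest per kb and the 2 with the smallest adjusted p in each step have every library's value. Of the other lists the called genes are named with some further genes, which were not all picked by a fixed rule. Members and lists were chosen with earlier results of these data known.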

Additional observations from a re-analysis of the deposited data

How the results depend on the processing

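The 9 calls among the members were the same 9 genes under every alternative test, scaling, pseudocount and filter. Leaving out each library in turn gave 6 to 7 members called higher and 2 called lower, the lost call being ST6GALNAC4 without ACC replicate 3. No fold change of a tested member, or of a called gene of the other lists, reversed. Fold changes of the other genes named from those lists were not followed across the alternatives. Counts by step moved where they rest on 1 or 2 genes. Branching genes lower numbered 0 by DESeq2 and 0 with a filter of 30 reads (1 as reported, GCNT4). Fucosylation genes higher numbered 2 with no filter, which adds FUT3 (adjusted p = 0.0407, limma), and 0 with a filter of 30 reads, which removes FUT1. Fucosylation genes lower numbered 1 by DESeq2, 1 by voom and 1 to 2 with a library left out (FUT11 lost, adjusted p 0.0956 to 0.114, limma). Core 1 genes higher numbered 0 to 1 with a library left out. GALNT12, B3GNT2 and ST3GAL6 also lost their adjusted p when some libraries were left out and by DESeq2. With the longest transcript in place of merged exons, the log2 ratio of the summed level was -0.42 for initiation (-0.41 as reported) and -0.19 for fucosylation (-0.18 as reported). Same-numbered ACC and control libraries did not deviate together (correlations -0.135, 0.04 and -0.031). Unlike-numbered libraries reached 0.114, and with 3 libraries per group this check cannot exclude a pairing. With the replicate block 9 members were called, and 1 fucosylation gene was lower. Under 30 reads a library, as for GCNT4, FUT1, FUT2, FUT3 and FUT6, depth limits what can be seen.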
